A study of Mus musculus with 60 samples.

Results

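Long noncoding RNAs that stay in the nucleus were represented by Malat1, Neat1, Miat, Rmst, Pantr1 and Peg13, which are 6 of the 47597 gene entries measured in each of 60 mouse brain RNA-Seq libraries. They were taken by gene name, and each name belonged to 1 entry. The libraries came from c57BL-6N mice aged 3 months and were labelled as cortex or striatum, in 10 groups of 6 (3 males and 3 females). In each labelled tissue the Δ12 line gave 3 genotypes (+/+, Δ12/+ and Δ12/Δ12), while the KO line gave +/+ and KO/+. The Δ12 allele carries a deletion within exon 12 of Htt, made in embryonic stem cells, that leaves a new splice donor, while the KO line goes back to 1 founder with an unplanned deletion that takes away the usual donor. No mouse homozygous for the KO allele was sequenced. RNA was total RNA depleted of ribosomal RNA, so transcripts without a poly(A) tail could be captured. Values are FPKM (fragment counts divided by transcript length and library depth), each divided by a scaling factor of its library (scaled FPKM).

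Long noncoding RNAs of this kind act as RNA and are not translated. Malat1 collects in nuclear speckles, bodies rich in splicing factors, and Neat1 is the RNA around which paraspeckles are built. Miat, also called Gomafu, is abundant in the nuclei of a part of neurons and carries repeats of the intron branch point sequence that the splicing factor SF1 recognizes. Rmst is transcribed in neural progenitors and midbrain and binds the transcription factor SOX2. Pantr1 is transcribed next to Pou3f3, the gene of a neural transcription factor, and Peg13 is an imprinted RNA expressed from the paternal chromosome in brain.

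The sequences by which these RNAs are known are shown from GENCODE M21 transcripts on GRCm38, all on the minus strand. In the longest Miat transcript (Miat-205, 9163 nucleotides), the 7-base motif TACTAAC occurred 6 times, at transcript positions 4941, 5041, 5066, 5589, 5603 and 5623, which lie in the windows chr5:112217309-112217460 and chr5:112216752-112216812. The motif was searched on the transcript strand, and its copies are in capitals here.
Miat repeats 1 to 3: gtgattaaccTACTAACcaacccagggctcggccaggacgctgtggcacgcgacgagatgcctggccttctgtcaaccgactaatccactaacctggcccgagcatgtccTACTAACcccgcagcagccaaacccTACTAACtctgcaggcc
Miat repeats 4 to 6: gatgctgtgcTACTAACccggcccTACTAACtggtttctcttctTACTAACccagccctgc
Its reverse complement, GTTAGTA, occurred 0 times in that transcript. Of the 1718 transcripts within 20% of its length, 2 held at least 6 copies of TACTAAC (0.116%), and the longest transcripts of Malat1, Neat1, Rmst, Pantr1 and Peg13 held 0, 1, 0, 0 and 0 copies.

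Malat1 and Neat1 end in a triple helix in place of a poly(A) tail, in which a tract of uridines holds the adenosines of the 3′ end. The last 400 bases of their longest transcripts shared a single 10-base stretch whose reverse complement follows within 200 bases in both, TTTTGCTTTT and then AAAAGCAAAA, shown in capitals below. The tracts were searched on the transcript strand, and 6 of 141767 annotated transcripts (0.00423%), from the genes Ankrd31, Malat1, Neat1 and Retreg3, held both in that order and distance. The windows are chr19:5795982-5796037 for Malat1 and chr19:5824708-5824770 for Neat1.
Malat1 3′ element: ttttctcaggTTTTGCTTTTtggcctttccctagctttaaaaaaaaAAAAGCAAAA
Neat1 3′ element: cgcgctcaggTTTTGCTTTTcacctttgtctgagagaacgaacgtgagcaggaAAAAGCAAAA
Malat1 (chr19:5795690-5802672) and Neat1 (chr19:5824708-5845478) are neighbours on chromosome 19. Their longest transcripts have 6983 and 20771 nucleotides in 1 exon. Miat spans chr5:112213228-112229395, Rmst chr10:92071037-92165170 and Pantr1 chr1:42590782-42694842. The single Peg13 transcript of 4725 nucleotides (chr15:72805600-72810324) is annotated as sense intronic, and Trappc9 is its host.

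The members differed in how precisely they were measured. In the tables, FPKM come with the bounds of an interval, whose half-width shrinks with the number of fragments. Peg13 and Malat1 were the most precise, with median half-widths of 4.97% and 4.00% of the value in cortex-like libraries (defined below) and 3.57% and 3.05% in striatum-like ones. For Neat1 these were 20.8% and 11.0%. Miat (6 annotated transcripts) reached 30.4% and 42.7%, Rmst (14 transcripts) 26.7% and 32.4%, and Pantr1 (12 transcripts) 61.1% and 81.5%. The shortest of the Rmst transcripts, Rmst-202, has 60 nucleotides (chr10:92162105-92162164) and is shown because FPKM divide by transcript length.
Rmst-202: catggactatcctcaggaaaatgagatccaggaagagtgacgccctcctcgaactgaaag
In labelled cortex Δ12/+ male 3, Rmst stood at 118 FPKM with an interval from 0 to 398, and its interval corresponded to 0.705 fragments. The part of the short transcripts in that value was not tested. The number of fragments was read from the interval by a relation set for genes with 1 transcript. For members with several annotated transcripts it need not be a count of fragments. The intervals do not measure the spread between libraries.

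The labels did not hold in a part of the libraries, and all results below are given with this in view. Slc17a7, the vesicular glutamate transporter of cortical excitatory neurons, was at 121 to 234 FPKM in 30 libraries and at 4.81 to 64.8 FPKM in the other 30, and these are called cortex-like and striatum-like. Markers of striatal projection neurons, all 9 without overlap, gave the same division, with a summed level of 112 to 616 scaled FPKM against 1206 to 2383. Of the 60 libraries, 30 were in the class of their labelled tissue and 30 had the sex-linked transcript of their labelled sex. All labelled +/+ and Δ12/+ libraries of the Δ12 line and the male Δ12/Δ12 ones were cortex-like, in both labelled tissues, and the female Δ12/Δ12 ones and the whole KO line were striatum-like. Expression-defined tissue and line can therefore hardly be told apart. The implied depth was 12.8 to 19.5 M fragments in cortex-like and 16.4 to 27.5 M in striatum-like libraries. Htt, the edited gene, was at 6.39 to 13.8 FPKM and 11.6 to 18.1 FPKM in these classes. The genotype label did not hold throughout either. With a KO/+ label, Htt stood at 16.7, 11.6 and 16.8 FPKM in males 1 to 3 and at 11.7, 16.7 and 11.8 in females 1 to 3 of labelled striatum, where the +/+ libraries were at 15.4 to 18.1. Thus 3 of 6 were below all +/+ libraries and 3 were within their range, on FPKM as deposited and on scaled FPKM. In labelled cortex, the KO/+ libraries were at 12.6, 12.0 and 17.3 FPKM (males) and 15.1, 12.0 and 16.0 (females) against 15.7 to 17.7 in +/+, with 4 of 6 below all +/+ libraries, and 3 of 6 on scaled FPKM. The summed level of Htt does not check the Δ12 allele, which is still transcribed. Libraries are named by their labels throughout, none was regrouped, and a sample comparison measures the spread between libraries so labelled.

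Neat1 and Peg13 were the members without overlap between the expression-defined tissues. Neat1 was at 0.586 to 4.02 scaled FPKM (median 1.95) in the 30 cortex-like libraries and at 6.64 to 16.6 (median 11.2) in the 30 striatum-like ones, a ratio of medians of 5.74. Peg13 was at 14.5 to 23.5 (median 19.3) and at 31.2 to 41.4 (median 37.0), a ratio of 1.92. For both genes every striatum-like library was above every cortex-like one. These 2 of 6 members stand beside 36.2% of 16076 genes whose classes did not overlap, 19.3% with the striatum-like libraries above. Missing overlap in either direction was thus no more frequent among the members than over all genes. By size, the difference of Neat1 exceeded that of 93.1% of genes and that of Peg13 57.2%, while Miat, whose classes overlapped, exceeded 61.7%. Since the classes were read from measured genes, the differences are described and not tested. In bulk tissue, fewer cells of a type and less RNA per cell cannot be told apart.

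The other members overlapped between the classes. Malat1, the most abundant of the 6, was at 644 to 2684 scaled FPKM (median 1338) in cortex-like and at 1030 to 2328 (median 1534) in striatum-like libraries, where it ranked 123rd and 40th of 16076 genes. Miat was at 0.486 to 16.7 (median 12.1) and at 2.35 to 11.4 (median 5.70), so its median was lower in striatum-like libraries by 1.02 on the log2 scale of scaled FPKM + 0.5, with 1 cortex-like library below all striatum-like ones. Pantr1 had medians of 27.1 and 17.4 and Rmst of 14.2 and 11.1, with wide overlap. For Malat1 the direction depended on the scaling: its log2 difference of medians was 0.20 on scaled FPKM and −0.18 on the FPKM as deposited. On the latter, the ratio of medians was 3.81 for Neat1, still without overlap, and 1.46 for Peg13, whose ranges then overlapped.

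**Figure D1:**
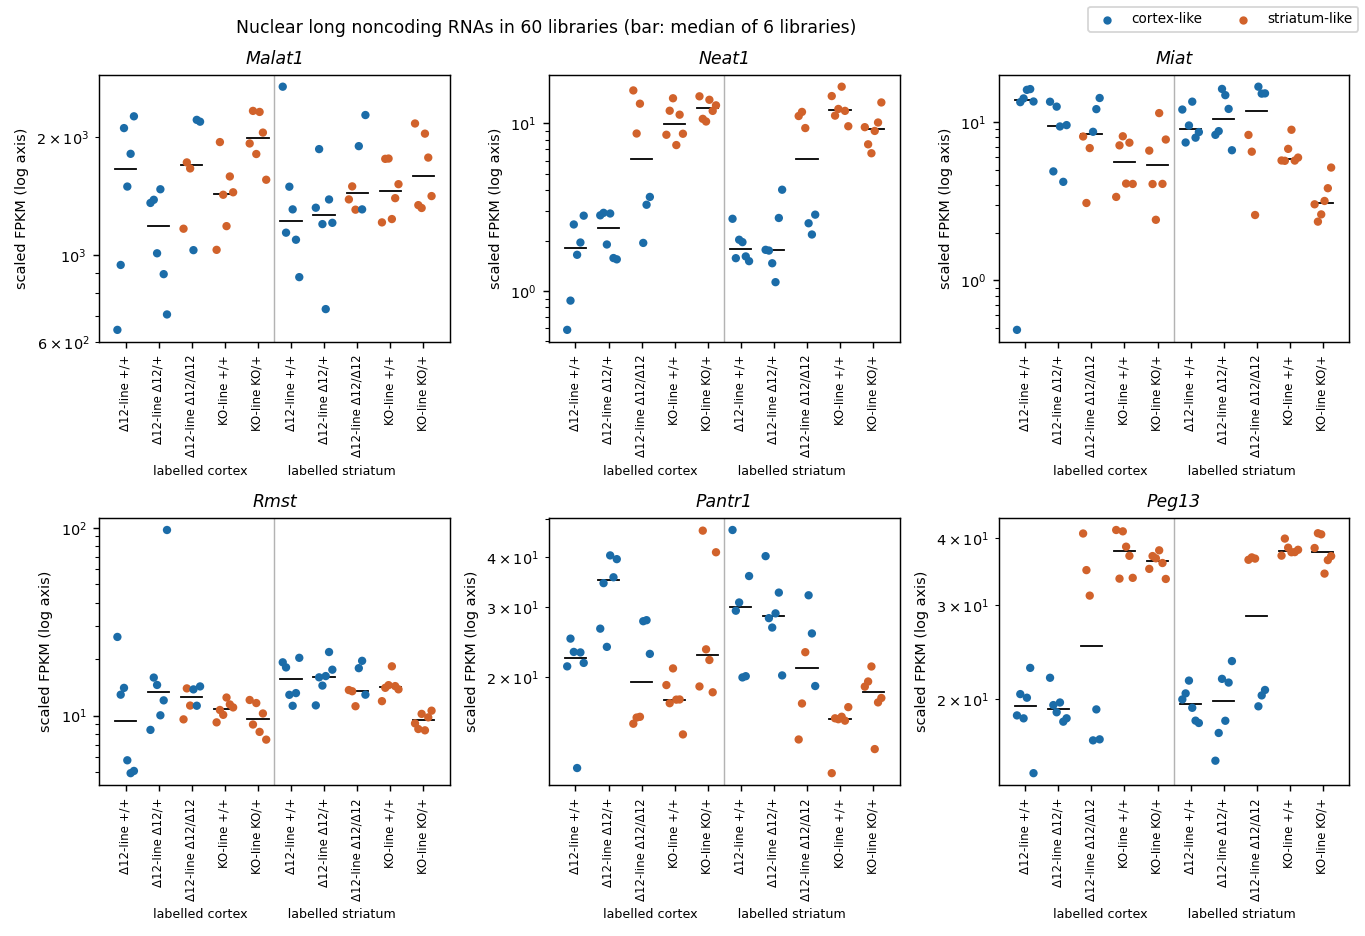
Scaled FPKM (log axes) of the 6 long noncoding RNAs in all 60 libraries by labelled group, with colours for the expression-defined tissue and bars for the median of 6 libraries. Neat1 and Peg13 divide by colour without overlap (Neat1 at 0.586 to 4.02 and 6.64 to 16.6), and the 3 striatum-like Δ12/Δ12 libraries of each labelled tissue stand with those of the KO line.

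The classes also differed by transcript length over all genes, and Neat1 and Peg13 lay on the side of this trend while the other 4 members were below the median of their length. The median log2 difference (striatum-like minus cortex-like) was −0.41 for 2397 genes with a longest transcript of up to 1000 nucleotides, 0.07 for 5671 genes between 2001 and 4000, 0.45 for 3323 genes between 4001 and 6000, and 0.94 for 171 genes above 12000 nucleotides. Peg13, at 0.92, belonged to the bin with the median of 0.45, in which 29.4% of genes had all striatum-like libraries above. Neat1, at 2.25, belonged to the longest bin, where this share was 49.1%. Miat, at −1.02, fell opposite to the median of 0.80 in its bin of 8001 to 12000 nucleotides, and Malat1, at 0.20, was below the 0.70 of its own. The part of transcript length in the differences was not tested.

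**Figure D2:**
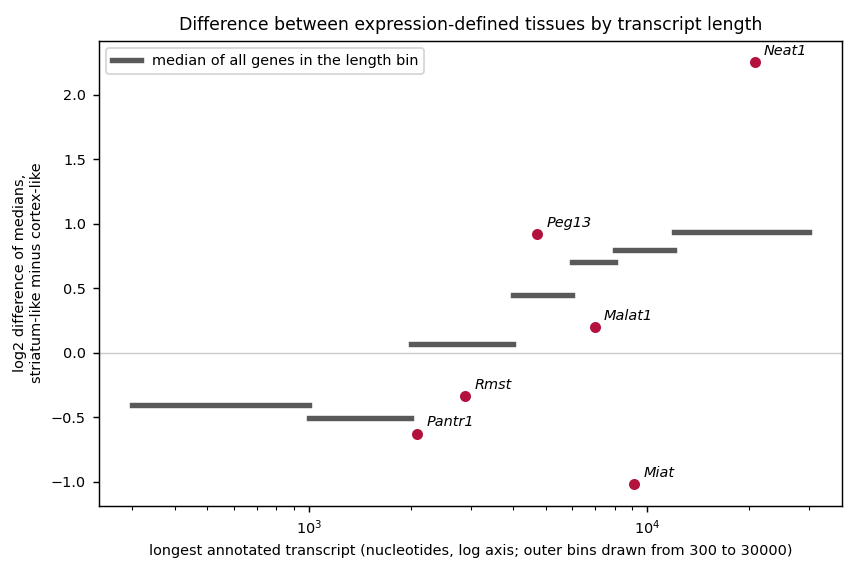
Log2 difference of class medians (striatum-like minus cortex-like, scaled FPKM + 0.5) against the longest annotated transcript in nucleotides (log axis), with grey lines for the median of all genes in a length bin and points for the 6 members. The grey medians run from −0.41 for the shortest to 0.94 for the longest transcripts, and Neat1 (2.25) and Peg13 (0.92) lie above, the other members below their bins.

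Transcripts of nuclear body proteins were read beside these RNAs, and the genes named from the lists in this and the next 2 paragraphs were chosen after their values were seen. Of 20 genes of paraspeckle proteins, 13 had every striatum-like library above every cortex-like one and 0 the reverse, with a median log2 difference of 1.21 against 0.03 over all genes. Sfpq, a core paraspeckle protein that binds Neat1, had medians of 10.2 and 42.4 scaled FPKM, and its partner Nono of 6.49 and 20.0. The median was higher in striatum-like libraries for 16 of the 20. Those with a lower one included Pspc1 (14.1 and 12.0), Tardbp (53.5 and 42.3) and Hnrnpa1 (19.4 and 13.2). Genes of nuclear speckle proteins, the companions of Malat1, had the higher median in striatum-like libraries for 26 of 28. Of these 28, 8 were wholly above and 2 wholly below, with a median of 0.54. Srrm1, a splicing coactivator, was at 4.37 and 18.0, whereas the splicing factors Srsf3 (38.3 and 16.3) and Srsf7 (27.9 and 11.7) were the 2 with a lower median in striatum-like libraries. These shares stand beside the same 19.3% above and 16.9% below over all genes.

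Direct partners and neighbours of the members showed both directions. Of 15 measured partners, 4 were wholly above and 4 wholly below. Sf1, whose protein recognizes the TACTAAC copies printed above, had medians of 4.14 in cortex-like and 33.2 in striatum-like libraries, and Sox2, the partner of Rmst, of 4.64 and 10.3. Celf3, a splicing factor that binds Miat, was at 11.5 and 32.3. RNase P is the enzyme that cuts the Malat1 3′ end. Its subunits Pop5 (67.3 and 11.5), Rpp38 (11.1 and 1.73) and Pop4 (12.1 and 4.34) were among those below. The other subunits overlapped. Of these, Rpp30 had a lower median in striatum-like libraries (5.00 and 2.79). Rpp25 (1.97 and 2.87), Pop1 (1.68 and 1.95), Rpp40 (0.872 and 0.949) and Pop7 (6.72 and 6.93) had a higher one. Among 16 neighbouring genes 4 were above and 1 below. Trappc9, the host of Peg13, was at 8.47 and 14.7 and Ago2 in the same region at 2.35 and 12.1. Chrac1, also in that region, was the 1 below (17.4 and 2.78), and Kcnk9 there overlapped (3.30 and 4.98). Pou3f3, next to Pantr1, was at 2.48 and 12.9, while Pantr1 itself had the opposite direction of medians. Pantr2, beside Pou3f3, had the direction of Pantr1, with overlap (5.015 and 0.613).

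Other long noncoding RNAs did not move as 1 group. Of 19 measured, Norad, Tug1, Kcnq1ot1, Sox2ot and Cdr1os were wholly above in striatum-like libraries and Rian, Snhg14, Pvt1 and Zfas1 wholly below. Norad, a cytoplasmic RNA that sequesters Pumilio proteins, had medians of 96.7 and 246 scaled FPKM, and Kcnq1ot1, an imprinted RNA, of 0.454 and 2.19. Zfas1, a snoRNA host, was at 39.1 and 6.79. Oligodendrocyte markers summed to 337 to 654 in cortex-like and 821 to 1339 in striatum-like libraries, with 6 of the 8 markers wholly above. Their part in the levels of Neat1 and Peg13 was not tested.

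The effect of the KO allele was asked within the KO line, whose libraries were all striatum-like, between libraries labelled KO/+ and +/+, of which the former showed a lower Htt only in part. In labelled striatum, Miat and Rmst were lower in the libraries labelled KO/+. Miat was at 2.35, 2.61, 3.02, 3.17, 3.82 and 5.16 scaled FPKM in KO/+ and at 5.69, 5.71, 5.72, 5.96, 6.77 and 8.94 in +/+. All KO/+ libraries were below all +/+ libraries, although by a narrow gap. The log2 fold change was −0.87 (SE 0.14, n = 6 and 6, limma with Benjamini-Hochberg adjusted p = 0.00715). Rmst was at 8.34, 8.48, 9.08, 9.78, 10.2 and 10.6 in KO/+ and at 11.9, 13.8, 14.1, 14.4, 14.5 and 18.3 in +/+, again without overlap. Its log2 fold change was −0.59 (SE 0.09, limma adjusted p = 0.00643). By an exact two-sided permutation test both had p = 0.00216, the smallest that 6 against 6 libraries allow. The 2 called members stand beside 1093 of 15808 genes called (6.91%), and 2.48% of genes had all KO/+ libraries below all +/+ ones (4.58% had no overlap in either direction). Both genes had wide intervals within a library. Over the striatum-like class, the median half-width was 42.7% of the value for Miat and 32.4% for Rmst. The 3 libraries labelled KO/+ whose Htt was within the +/+ range (males 1 and 3 and female 2) had Miat at 3.17, 5.16 and 2.35 and Rmst at 8.34, 10.6 and 8.48. The other 3 had Miat at 3.82, 3.02 and 2.61 and Rmst at 9.78, 9.08 and 10.2. Since all 6 were below all +/+ libraries, both parts had to be so too, and a relation to Htt was not tested. When all 30 libraries labelled striatum shared 1 estimate of the spread, neither was called (adjusted p = 0.214 and 0.0543).

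Neat1 had a mean of 9.35 ± 2.34 (SD, n = 6) scaled FPKM in these KO/+ libraries and 12.7 ± 2.50 in +/+. The difference of −0.43 on the log2 scale (SE 0.16) did not pass (limma adjusted p = 0.137), with 4 of 6 KO/+ libraries below all +/+ ones, and it passed (adjusted p = 0.0493) without +/+ male 3. Malat1 (0.17, SE 0.16), Pantr1 (0.23, SE 0.12) and Peg13 (−0.01, SE 0.05) were not called either. Peg13 was the steadiest, at 34.3 to 40.8 in KO/+ and 37.0 to 39.9 in +/+. None of the paraspeckle, nuclear speckle, partner or neighbouring genes was called in this comparison. Of the other long noncoding RNAs, Cdr1os, the host transcript of a circular RNA, was the 1 called (0.50, SE 0.12, limma adjusted p = 0.0371).

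Markers of other brain regions moved with Miat and Rmst in the same libraries. Of 6 markers of thalamus and hypothalamus, 5 were lower in KO/+, among them Slc17a6, a glutamate transporter of thalamic neurons (−2.54, SE 0.24), Prkcd (−2.46, SE 0.24) and Pmch, a hypothalamic neuropeptide (−5.12, SE 0.54). Their summed level was 7.23 to 17.6 scaled FPKM in KO/+ and 55.5 to 149 in +/+, and Pmch and Hcrt had a median of 0 in KO/+. Of 9 markers of striatal projection neurons, 7 were higher in KO/+, among them Penk (0.54, SE 0.08), and their sum was 1704 to 2207 against 1209 to 1629. Oligodendrocyte markers were lower for 6 of 8, with sums of 918 to 1041 against 1121 to 1339. The part of tissue composition in the lower Miat and Rmst was not tested. Across the 30 striatum-like libraries, the mean log2 level of the thalamus and hypothalamus markers rose with Miat (Pearson r = 0.54, adjusted permutation p = 0.0316; Spearman rho = 0.55, adjusted p = 0.0279; r = 0.49 without the 2 farthest libraries) and with Rmst (r = 0.59, adjusted p = 0.0150; rho = 0.62, adjusted p = 0.00869; r = 0.45). These 30 include the KO/+ and +/+ libraries compared here, so both relations contain the same group difference again. They were not computed within groups.

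**Figure D3:**
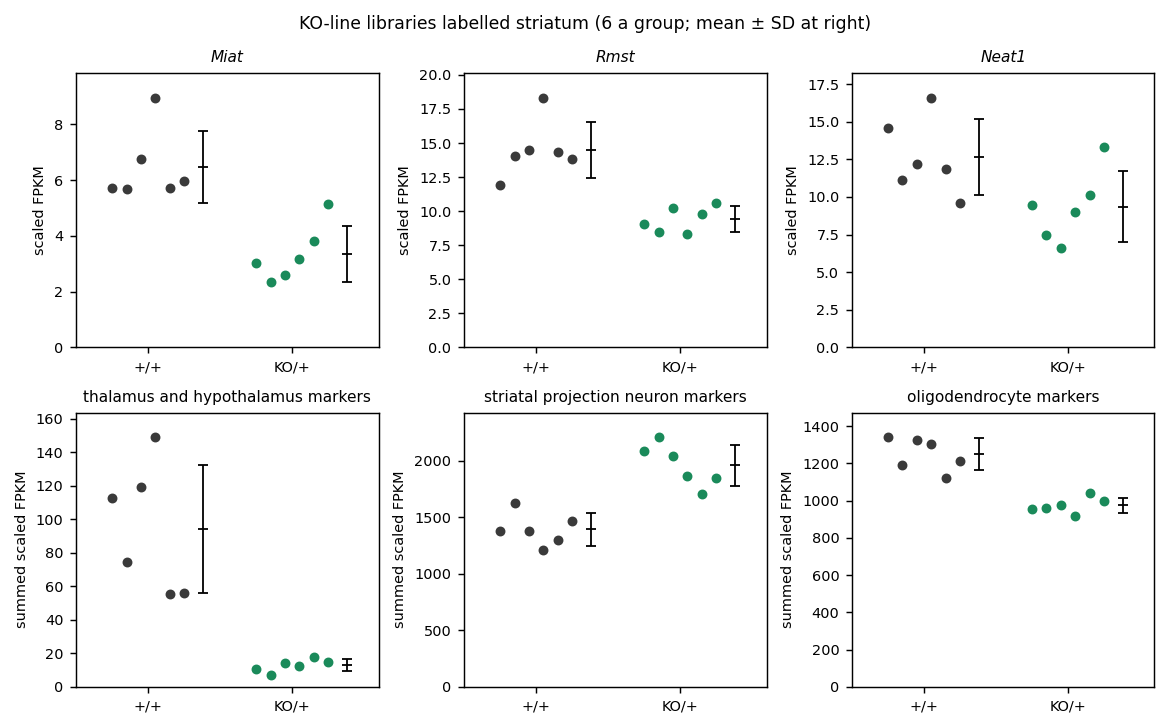
Scaled FPKM of Miat, Rmst and Neat1 and summed scaled FPKM of 3 marker lists in the 6 libraries labelled +/+ and the 6 labelled KO/+ of the KO line and striatum, with mean ± SD beside the points. Miat and Rmst do not overlap between genotypes, and neither do the thalamus and hypothalamus markers (7.23 to 17.6 in KO/+ and 55.5 to 149 in +/+).

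In the libraries of the KO line labelled cortex, in which Htt again went against a part of the KO/+ labels, 0 of the 6 members were called by limma, beside 14 of 15820 genes (0.0885%). At an unadjusted p under 0.05 there were 2202 genes, among them Malat1 and Pantr1. Malat1 was at 1554, 1808, 1923, 2050, 2314 and 2328 scaled FPKM in KO/+ and at 1030, 1184, 1423, 1444, 1585 and 1939 in +/+. Each KO/+ library was above the +/+ median, with overlap in the upper part, and the log2 difference was 0.49 (SE 0.16, limma adjusted p = 0.220). Pantr1 had means of 28.4 ± 12.3 and 17.8 ± 2.21 (SD, n = 6 each), a log2 difference of 0.57 (SE 0.23, adjusted p = 0.303). Miat (0.00, SE 0.33) and Rmst (−0.16, SE 0.12) stood at 6.05 ± 3.25 and 9.77 ± 1.89 in KO/+ and at 5.70 ± 2.08 and 10.8 ± 1.13 in +/+. The KO/+ effect in labelled cortex minus that in labelled striatum was 0.87 for Miat (SE 0.37, limma adjusted p = 0.392) and 0.43 for Rmst (SE 0.16, adjusted p = 0.349), so the lower levels were not shown to belong to 1 labelled tissue. For Neat1 this difference was 0.70 (SE 0.23, adjusted p = 0.336), and 0 of 15917 genes passed (0.0%) while 1788 had an unadjusted p under 0.05.

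In the Δ12 line, Δ12/+ and +/+ libraries were all cortex-like, and 0 members were called by limma in either labelled tissue. In labelled striatum, 1 of 15077 genes passed (0.00663%), against 486 before adjustment (p under 0.05). The 6 members differed there by −0.11 (Malat1, SE 0.23) to 0.13 (Miat, SE 0.23). In labelled cortex, 10 of 15095 genes passed (0.0662%), against 1263 before adjustment (p under 0.05). Pantr1 was the member nearest to a call, at 23.8, 26.5, 34.4, 35.6, 39.6 and 40.5 scaled FPKM in Δ12/+ and 11.8, 21.3, 21.7, 23.0, 23.1 and 25.0 in +/+. Of the Δ12/+ libraries 5 were above all +/+ libraries. The log2 difference was 0.67 (SE 0.20, limma adjusted p = 0.406, exact permutation p = 0.00433 before adjustment). Rmst differed by 0.81 (SE 0.61), a value carried by male 3 at 97.4 scaled FPKM, and by 0.21 without that library. For Pantr1 the Δ12/+ effect differed between labelled tissues by 0.68 (SE 0.30, limma adjusted p = 0.769), beside 0 of 15173 genes called (0.0%) and 969 at an unadjusted p under 0.05.

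The Δ12/Δ12 comparison combined genotype with expression-defined tissue, and it used the same +/+ libraries as the Δ12/+ comparison. In labelled striatum, Neat1 and Peg13 were called higher in Δ12/Δ12 than in +/+ (1.296, SE 0.28, limma adjusted p = 0.0296, and 0.46, SE 0.13, adjusted p = 0.0357), beside 4381 of 15467 genes (28.3%). Neat1 was at 2.17, 2.54 and 2.85 scaled FPKM in the male and at 9.38, 11.1 and 11.7 in the female Δ12/Δ12 libraries, against 1.51 to 2.70 in +/+. The female libraries were striatum-like and the male and all +/+ libraries cortex-like, so for females genotype and tissue cannot be told apart. With the class as a covariate, Neat1 differed by 0.46 (SE 0.17, limma adjusted p = 0.281) and Peg13 by 0.12 (SE 0.08, adjusted p = 0.508). Here the class sets apart only the female Δ12/Δ12 libraries, so these fold changes are those between the males. Without any 1 of the 6 female libraries compared, 0 members were called.

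Among labelled males alone, where all libraries were cortex-like, 0 members were called by limma in either labelled tissue. Neat1 was at 2.17, 2.54 and 2.85 in Δ12/Δ12 and at 1.51, 1.61 and 1.96 in +/+ of labelled striatum (0.46, SE 0.14, adjusted p = 0.522), and at 1.94, 3.27 and 3.64 against 1.64, 1.95 and 2.81 in labelled cortex (0.38, SE 0.28, adjusted p = 0.773). Rmst in labelled cortex was at 11.3, 13.8 and 14.3 in Δ12/Δ12 and at 4.93, 5.07 and 5.78 in +/+ males (1.24, SE 0.16, adjusted p = 0.176), whereas the +/+ females of that group were at 12.9, 14.0 and 26.2. In the fit of all 12 libraries labelled cortex, 0 members were called beside 145 of 15696 genes (0.924%), with 5978 genes at an unadjusted p under 0.05. There Neat1 differed by 1.66 (SE 0.47, adjusted p = 0.0697), Peg13 by 0.38 (SE 0.20) and Rmst by 0.35 (SE 0.32).

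**Figure D4:**
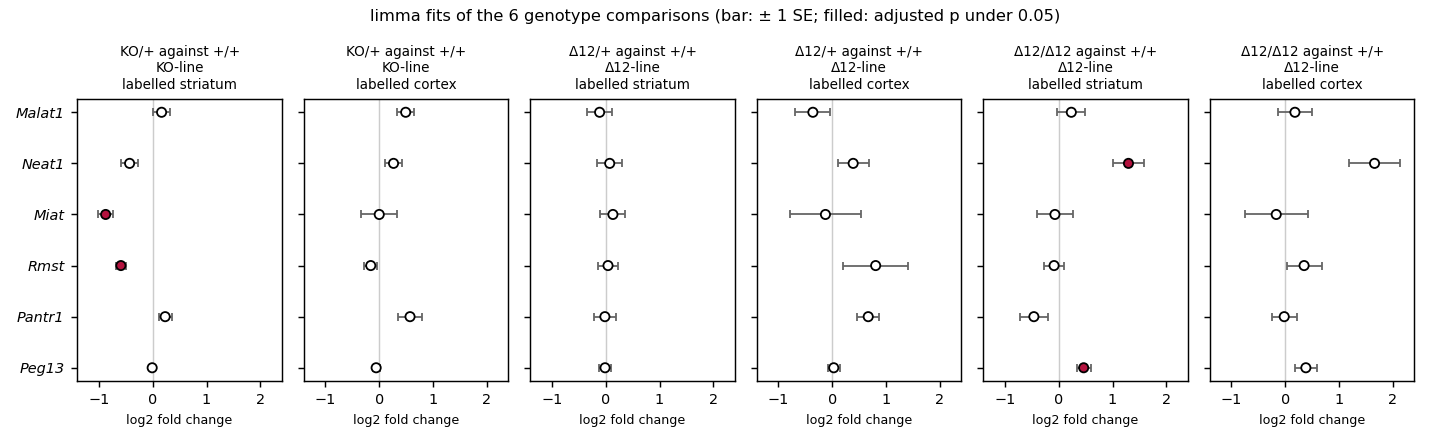
Log2 fold changes of the 6 members in the 6 genotype comparisons (limma on scaled FPKM + 0.5, 6 against 6 libraries; bars ± 1 SE; filled points have an adjusted p under 0.05). The 4 filled points are Miat (−0.87) and Rmst (−0.59) in KO/+ of labelled striatum and Neat1 (1.296) and Peg13 (0.46) in Δ12/Δ12 of labelled striatum, where females are of the other expression-defined tissue.

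The labelled tissue itself went with no difference. Over all 60 libraries with the labelled mouse as a block, a pairing that the sex-linked transcripts break in a part of the mice, limma called 0 members beside 0 of 16076 genes (0.0%), with 872 at an unadjusted p under 0.05. Without the block it also called 0 members and 0 genes, with 165 at an unadjusted p under 0.05. The members differed between labelled cortex and labelled striatum by −0.24 (Rmst, SE 0.13) to 0.08 (Pantr1, SE 0.10).

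A total of 2 pairs of members varied together within an expression-defined tissue, out of 15 pairs in each class (30 tests), counting those with an adjusted p under 0.05 by both Pearson's r and Spearman's rho. By Pearson's r alone, Malat1 and Miat in cortex-like (r = 0.50, adjusted permutation p = 0.0270; rho = 0.42, adjusted p = 0.122) and Rmst and Pantr1 in striatum-like libraries (r = −0.49, adjusted permutation p = 0.0484; rho = −0.50, adjusted p = 0.0559) passed as well. On FPKM as deposited, Malat1 and Peg13 in striatum-like libraries passed both as well (r = −0.51, adjusted permutation p = 0.0275; rho = −0.60, adjusted p = 0.00700). In cortex-like libraries, Malat1 and Neat1 rose together (Pearson r = 0.72, Spearman rho = 0.72, both with an adjusted permutation p of 0.0003, n = 30; r = 0.66 without the 2 farthest libraries). In striatum-like ones this pair had r = 0.09 and rho = 0.06. The second pair was Neat1 and Miat in striatum-like libraries (r = 0.79, rho = 0.77, both with an adjusted permutation p of 0.0003; r = 0.79 without the 2 farthest), for which cortex-like libraries gave r = 0.40 and rho = 0.12. A difference between the classes was not tested. On deviations from the means of the labelled groups, r was 0.81 for the first pair and 0.77 for the second. The 30 libraries of a class carry the labels of 15 mice, but for only 16 of 30 labelled mice did sex-linked transcripts match between tissues, which makes the pairing doubtful. On means per labelled mouse r was 0.56 (adjusted p = 0.310) for Malat1 and Neat1 and 0.83 (adjusted p = 0.00240) for Neat1 and Miat.

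**Figure D5:**
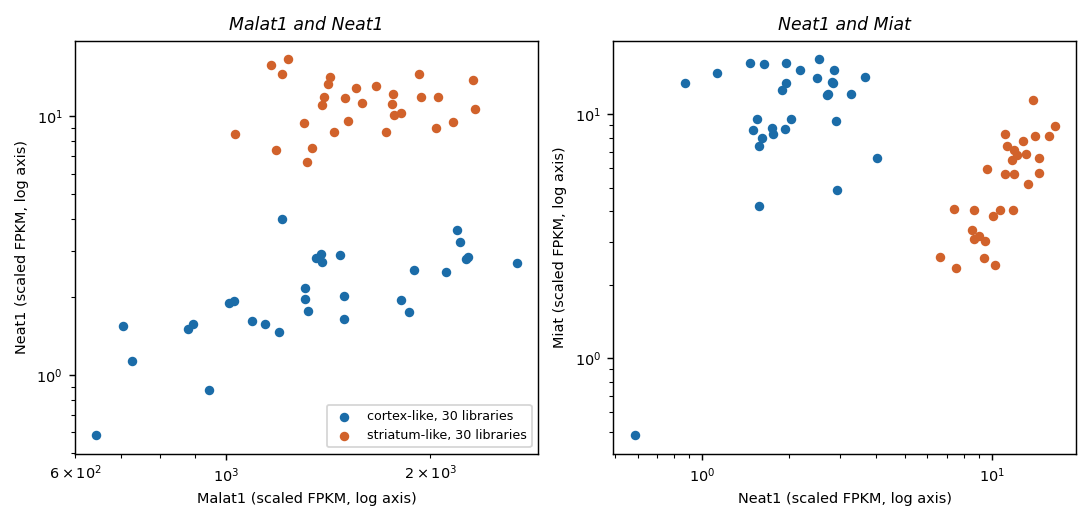
Scaled FPKM (log axes) of Neat1 against Malat1 and of Miat against Neat1, with 1 point per library and colours for the 30 cortex-like and 30 striatum-like libraries. Malat1 and Neat1 rise together in cortex-like libraries (r = 0.72) and Neat1 and Miat in striatum-like ones (r = 0.79), and the classes separate along Neat1.

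Cell type measures moved with several members, in a family of 156 relations that also held the scaling factor and the depth of the library. Malat1 fell as the scaling factor rose, but scaled values are divided by that factor, which builds in a part of such a relation. On Malat1 FPKM as deposited, r was −0.45 in cortex-like libraries (rho = −0.41, adjusted permutation p = 0.0524 and 0.0981, −0.43 without the 2 farthest) and −0.56 in striatum-like ones (rho = −0.61, adjusted permutation p = 0.00909 and 0.00468, −0.56). In striatum-like libraries, the markers of striatal projection neurons fell as Neat1 (r = −0.67, rho = −0.67, adjusted permutation p = 0.00312 for both, −0.69) and Miat rose (r = −0.72, rho = −0.76, adjusted p = 0.00078 for both, −0.74). Pantr1 had the other sign, with r = 0.53 (rho = 0.61, adjusted permutation p = 0.0299 and 0.0103, 0.37 without the 2 farthest). For Pantr1 the markers of thalamus and hypothalamus gave r = −0.52 (rho = −0.60, adjusted permutation p = 0.0299 and 0.0104, −0.53). In all, 12 of the 156 relations had both adjusted values under 0.05, and those with marker lists, 10 in number, were all in striatum-like libraries. Their part in the pairs above was not tested. Unlike the pairs, these relations were not repeated on deviations from the means of labelled groups or on means per labelled mouse. Their p-values treat the libraries of a class as independent, and differences between labelled groups enter them.

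The genes whose levels followed each member most closely were found by the mean of its Spearman rho over the 30 cortex-like and the 30 striatum-like libraries, among 14066 genes. They are given as a description. For Malat1 these were Gm37334 (0.82), 9530059O14Rik (0.81) and Gm38020 (0.80). Neat1 was followed by Adrbk2, a receptor kinase (0.77), Map3k9 (0.69) and the splicing factor Luc7l3 (0.67). Miat went with Mast1 (0.63), Rmst with Gatm, an enzyme of creatine synthesis (0.63), and Pantr1 with Zfp960 (0.54). Peg13 went with Atp2a2, the calcium pump of the endoplasmic reticulum (0.72), Kif3c, a kinesin (0.67), and Nefm, a neurofilament subunit (0.65).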

How the data were processed

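Values are FPKM per gene with interval bounds as the authors deposited them, 1 table a library, in the layout of Cufflinks output with GRCm38 coordinates. The submitters' processing notes name TopHat2 2.0.14, HTSeq 0.6.1p1 and GRCm38.p4, with no role given, and the program that made the FPKM is not given in the sources used here. No counts were in these tables. Entries not marked OK in every library (23) were dropped. FPKM were divided by the median of ratios over 13235 entries above 0 in all 60 libraries, log2(scaled FPKM + 0.5) was taken, and genes with a mean of at least 0.5 were tested with limma 3.58.1 in R 4.3.3, with labelled sex as a covariate, 12 libraries a fit and Benjamini-Hochberg adjustment over all genes tested. Genes were called at an adjusted p under 0.05. Fold changes on this scale understate the change of low genes. Exact and 100000-resample permutation tests were two-sided. The script was tested on simulated data.

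Depth was estimated from the intervals of 3661 single-transcript entries of at least 2000 nucleotides, with at least 20 fragments. Expression-defined tissue was set at 100 FPKM of Slc17a7. Groups follow the labels. In 1 case (striatum, KO/+ female 3) title and genotype label give different lines, and the latter was followed. The study describes 3 males and 3 females a group, but with sex labels that held in 30 of 60 libraries, p-values measure the spread between libraries so labelled. Members and lists were chosen with earlier results of these data known. All 6 members are named, from each list up to 4 called genes with the smallest adjusted p, and for each member up to 3 genes of the most like pattern; list genes named by class were chosen after their values were seen. The alternatives were other scalings, pseudocounts, filters, covariates, weights and thresholds, a replicate block and each library left out.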

Additional observations from a re-analysis of the deposited data

Results flagged for a closer look

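Of 60 sets of 6 libraries (6 members in 10 labelled groups), 6 held a library whose gap to the nearest of the others was over 0.625 of the range of its set, while chance gives about 1 in 20, or 3 sets. Malat1 stood high at 2684 scaled FPKM in labelled striatum Δ12-line +/+ female 1, where the other 5 libraries were at 878 to 1492. Miat stood low at 0.486 in labelled cortex Δ12-line +/+ female 1, a library with 14912 entries above 0, the fewest of all, and high at 8.94 in labelled striatum KO-line +/+ male 1. Rmst stood at 97.4 in labelled cortex Δ12-line Δ12/+ male 3, the value with an interval of 238% on either side. Pantr1 stood low at 11.8 in labelled cortex Δ12-line +/+ male 1 and at 11.4 in labelled striatum KO-line +/+ female 1. The difference of the KO/+ and of the Δ12/+ effect between labelled tissues was called by limma for 0 members.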

How the results depend on the processing

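Each genotype comparison was repeated with other scalings, pseudocounts, filters, covariates, weights, thresholds and shared fits. In KO/+ of labelled striatum the 2 called members became 0 when all 30 libraries of the labelled tissue shared a fit, and leaving out each library gave 2 to 3. In Δ12/Δ12 of labelled striatum the 2 called members became 1 on FPKM as deposited and 0 without labelled sex, in labelled males alone, with expression-defined tissue as a covariate and with the replicate block, and leaving out each library gave 0 to 2. In Δ12/Δ12 of labelled cortex the 0 called members became 2 with all 30 libraries in a shared fit and 1 at an adjusted p under 0.1, and leaving out each library gave 0 to 1, with Neat1 called without +/+ male 2. Non-overlapping members by expression-defined tissue went from 2 to 1 on FPKM as deposited. Pairs of members went from 2 to 3 on FPKM as deposited and to 1 on means per labelled mouse. The means per labelled mouse were chosen after seeing the data and rest on a doubtful pairing. Relations of members with marker lists, the scaling factor or the depth went from 12 to 29 on FPKM as deposited. The causes were not tested, beyond the fewer libraries of some fits.

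Directions turned only for fold changes that were not called, and for the class difference of Malat1 (−0.18 on FPKM as deposited). With array weights these were Peg13 in KO/+ of labelled striatum (0.0011), Pantr1 in Δ12/+ (0.12) and Malat1 in Δ12/Δ12 of labelled striatum (−0.081). Miat in KO/+ of labelled cortex turned on FPKM as deposited (−0.15), with quantile normalization (−0.0098) and with a pseudocount of 0.1 (−0.0056), and Rmst in Δ12/+ of labelled striatum on FPKM as deposited (−0.0080). Quantile normalization also turned Malat1 (0.63), Pantr1 (0.0081) and Peg13 (0.0022) in Δ12/+ of labelled striatum, Malat1 in Δ12/+ of labelled cortex (1.16) and Pantr1 in Δ12/Δ12 of labelled cortex (0.18). Labelled males alone, and likewise the class as a covariate, turned Miat (0.66), Rmst (0.19) and Pantr1 (0.040) in Δ12/Δ12 of labelled striatum and Malat1 (−0.10), Pantr1 (0.51) and Peg13 (−0.10) in labelled cortex. Both settings estimate the same difference, that between the males, and are not separate checks.

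Leaving out each library, the fold changes that turned ran in KO/+ from −0.028 to 0.012 (Peg13, labelled striatum) and −0.19 to 0.20 (Miat, labelled cortex). In Δ12/+ of labelled striatum they ran from −0.22 to 0.052 (Malat1), −0.11 to 0.22 (Neat1), −0.066 to 0.14 (Rmst), −0.094 to 0.095 (Pantr1) and −0.069 to 0.058 (Peg13), and of labelled cortex from −0.79 to 0.13 (Miat) and −0.048 to 0.094 (Peg13). In Δ12/Δ12 they ran from −0.21 to 0.21 (Miat, labelled striatum), and in labelled cortex from −0.017 to 0.37 (Malat1), −0.76 to 0.10 (Miat) and −0.21 to 0.066 (Pantr1).

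Same-numbered libraries did not deviate together (mean correlation of deviations −0.07 to 0.02 over the 6 comparisons), so the replicate numbers do not pair them. With the replicate block 2 members were called in KO/+ of labelled striatum and 0 in the other 5 comparisons. Intervals were widest for Miat, Rmst and Pantr1, with median half-widths by class of 26.7% to 81.5% of the value. The parts of depth and of the several transcripts in these widths were not tested.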
